A study of Homo sapiens with 9 samples.

Results

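Genes of the YAP and TEAD pathway were followed in OVCAR3 cells, a human epithelial ovarian cancer line of high-grade serous type, after overexpression or knockdown of CTCFL, a testis-specific paralog of the chromatin protein CTCF that is also called BORIS. The set held 10 listed genes, CCN1, CCN2, ANKRD1, AJUBA, AMOTL2, LATS2, AXL, YAP1, WWTR1 and TEAD1, chosen by name and matched by Ensembl identifier among the 60660 identifiers of the count matrix. All 10 were found, and all 10 passed the low-count filter among 17794 genes tested. RNA-seq counts came from 9 libraries in 3 groups of 3 biological replicates (Control, CTCFL-OE, CTCFL-KD), and each replicate was a pool of 3 technical replicates. CTCFL-OE cells were transfected transiently with 2 µg of the pCpGfree-vitroHBORIS plasmid and harvested 48 h later. The labels give no treatment for Control, whereas the methods of the study describe transfection with the LacZ plasmid pCpGfree-vitroHLacZ. CTCFL-KD RNA came from siRNA knockdown cells of an earlier experiment, and no library of a control siRNA was part of the comparison. Knockdown and the separate handling of those cells therefore cannot be told apart, and both treated groups share the same 3 Control libraries. All 9 libraries came from this 1 cell line.

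The Hippo pathway is a kinase cascade in which MST kinases activate LATS kinases, and LATS kinases phosphorylate the coactivators YAP1 and TAZ (gene WWTR1) so that they stay in the cytoplasm. When the cascade is off, YAP1 and TAZ enter the nucleus and bind TEAD factors, which recognise a short DNA element and switch on genes for matrix proteins, cytoskeletal regulators and growth. CCN1, CCN2 and ANKRD1 are the transcripts read most often as YAP output, while AMOTL2 and LATS2 are targets that feed back to restrain YAP. In ovarian carcinoma the pathway is known for its part in growth and in the response to cell density.

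Promoter sequences are shown for CCN2, ANKRD1 and AMOTL2 because the core of the TEAD element, GGAATG or its reverse complement CATTCC, occurs in them and because ANKRD1 fell in CTCFL-KD, AMOTL2 differed between the treated groups and CCN2 passed no test. The RefSeq promoter table (GRCh38.p14) held 8 of the 10 genes with 12 start sites, and the 250 bases before each start were searched on both strands. CCN1 and TEAD1 had no entry. The capitals mark the motif, and each sequence runs 5′ to 3′ along the gene.
CCN2 (chr6:131951373-131951622, minus strand): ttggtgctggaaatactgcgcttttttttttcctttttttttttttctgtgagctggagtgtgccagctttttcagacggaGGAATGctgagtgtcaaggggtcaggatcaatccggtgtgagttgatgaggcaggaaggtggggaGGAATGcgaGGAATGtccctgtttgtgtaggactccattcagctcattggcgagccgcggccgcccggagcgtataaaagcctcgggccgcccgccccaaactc
ANKRD1 (chr10:90921088-90921337, minus strand): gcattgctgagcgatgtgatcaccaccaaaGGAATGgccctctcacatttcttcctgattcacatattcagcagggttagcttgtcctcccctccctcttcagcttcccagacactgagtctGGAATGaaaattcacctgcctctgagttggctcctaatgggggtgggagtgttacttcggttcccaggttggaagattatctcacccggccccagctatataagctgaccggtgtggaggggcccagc
AMOTL2, inner start site (chr3:134374448-134374697, minus strand): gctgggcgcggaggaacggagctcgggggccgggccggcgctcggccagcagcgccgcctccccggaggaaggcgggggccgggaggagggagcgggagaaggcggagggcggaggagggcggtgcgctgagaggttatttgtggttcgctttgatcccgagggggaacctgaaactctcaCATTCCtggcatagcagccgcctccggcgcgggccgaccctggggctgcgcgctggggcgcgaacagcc
Counting the base just before the start as -1, the CCN2 matches began at -169, -104 and -95, and those of ANKRD1 began at -220 and -128. The AMOTL2 match at -69 was on the opposite strand. In all, 6 of the 12 windows held the motif, including windows of YAP1, AJUBA and AXL with 1 match each. The outer start site of AMOTL2 and the other start sites of AJUBA and AXL had no match. Among 35116 windows of the same length in the table, 11.9% held at least 1 match, 0.928% held at least 2 and 0.0797% held at least 3. A match describes the letters of the window and is not a measured binding site.

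Library totals ranged from 14332622 to 24490080 counts, and levels are given as CPM (read counts scaled to library size by TMM), with the mean and SD over 3 libraries. CTCFL itself was counted 6, 9 and 10 times in Control, 36, 34 and 72 times in CTCFL-OE, and 0, 1 and 0 times in CTCFL-KD, so the 3 groups were ordered as labelled at a low count. A count of 0 allows up to 3 counts in that library, for counting error only. All 9 epithelial markers were at 1 CPM or more in some library of every group, with summed levels of 5287 to 5408 CPM in Control, 4610 to 4999 in CTCFL-OE and 9078 to 14829 in CTCFL-KD. Fibroblast markers summed to 28.0 to 33.8, 24.99 to 44.2 and 37.8 to 43.0 CPM in these groups, endothelial markers to 7.45 to 7.96, 8.85 to 10.9 and 5.59 to 6.58 CPM, and immune markers to 0.250 to 0.506, 0.410 to 1.11 and 2.08 to 3.52 CPM. In Control, 9 of 10 fibroblast, 3 of 5 endothelial and 6 of 6 immune markers were under 1 CPM in every library. COL1A2, COL3A1, DCN, CD3E and CD68 were at 0 in every Control library, and COL1A2 was counted 156, 239 and 247 times in CTCFL-KD. COL1A1 went the other way, with all CTCFL-KD libraries below Control, at a mean of 23.3 CPM against 29.8 CPM. In the edgeR quasi-likelihood test of CTCFL-KD against Control, 6 of 9 epithelial markers were higher and 2 lower at an adjusted p under 0.05. The 2 lower were KRT7 (log2 fold change -1.12) and WT1 (-0.63). Of 4 fibroblast markers tested, 2 were higher and 0 lower. The part of these marker differences in the results was not tested. CTCFL-KD replicate 1 stood apart. Its TMM factor was 0.775, the lowest, and against the Control mean the fifth of genes with the shortest exons had a median log2 ratio of 0.72 while the fifth with the longest had -0.53. Mitochondrial genes took 6.16% to 6.52% of counts in Control, 7.40% to 14.9% in CTCFL-OE and 7.80% to 11.8% in CTCFL-KD.

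In Control cells the 10 genes spanned a wide range of levels. Per kilobase of exon, AMOTL2 was at 135 ± 4.91 CPM per kb (SD, n = 3), CCN1 at 42.5 ± 1.93, CCN2 at 38.1 ± 2.79, ANKRD1 at 22.8 ± 1.07, AJUBA at 20.2 ± 1.31, TEAD1 at 16.9 ± 1.05, YAP1 at 12.6 ± 0.0551, WWTR1 at 12.1 ± 0.690, LATS2 at 2.75 ± 0.116 and AXL at 0.231 ± 0.0168. The Control ranges of CCN1 and CCN2 overlapped, as did those of YAP1 and WWTR1, and every other pair of neighbours in this order was separate. AXL was thus the least abundant member, and the feedback regulator AMOTL2 the most abundant.

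The secreted matricellular proteins CCN1 and CCN2 signal through integrins and are classical YAP output. CCN1 (chr1:85580761-85584589, plus strand) was at 151, 165 and 156 CPM in Control, 84.7, 122 and 236 CPM in CTCFL-OE and then 147, 172 and 289 CPM in CTCFL-KD. CCN2 (chr6:131948176-131951372, minus strand) was at 88.2, 83.0 and 96.0 CPM in Control, 65.0, 54.8 and 148 CPM in CTCFL-OE and then 90.9, 92.9 and 161 CPM in CTCFL-KD. In both genes replicate 3 was the highest library of CTCFL-OE and of CTCFL-KD, and the other libraries of CTCFL-OE lay below every Control library. The highest CTCFL-OE library exceeded the lowest 2.79-fold for CCN1 and 2.70-fold for CCN2, against 1.09-fold and 1.16-fold in Control. Neither treated group was separate from Control in either gene.

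ANKRD1, an ankyrin repeat protein also made in heart muscle, and AXL, a receptor tyrosine kinase for the ligand GAS6, are also known targets of YAP. ANKRD1 (chr10:90912096-90921087, minus strand) was at 39.7, 39.7 and 43.0 CPM in Control, 21.5, 34.0 and 45.2 CPM in CTCFL-OE and then 21.8, 16.8 and 28.5 CPM in CTCFL-KD. All CTCFL-KD libraries lay below Control, whereas CTCFL-OE spanned the Control range. AXL (chr19:41219223-41261766, plus strand) was at 1.25, 1.09 and 1.22 CPM in Control, 1.51, 2.25 and 4.42 CPM in CTCFL-OE and then 2.44, 2.08 and 2.74 CPM in CTCFL-KD. Both treated groups lay above Control for AXL, but on few reads, with 24 to 28 counts per library in Control, 33 to 72 in CTCFL-OE and 27 to 50 in CTCFL-KD.

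AMOTL2, an angiomotin that holds YAP at junctions, and LATS2, the kinase that phosphorylates YAP, restrain YAP, whereas AJUBA, a LIM protein of cell junctions, binds LATS kinases and restrains them. AJUBA (chr14:22971177-22982551, minus strand) was at 120, 111 and 126 CPM in Control, 92.1, 97.2 and 83.0 CPM in CTCFL-OE and then 43.8, 75.4 and 84.8 CPM in CTCFL-KD. AMOTL2 (chr3:134355347-134375479, minus strand) was at 858, 854 and 911 CPM in Control, 1062, 1200 and 1125 CPM in CTCFL-OE and then 408, 593 and 757 CPM in CTCFL-KD. LATS2 (chr13:20973036-21061586, minus strand) was at 14.9, 16.2 and 15.3 CPM in Control, 13.0, 11.3 and 12.7 CPM in CTCFL-OE and then 5.05, 13.0 and 11.0 CPM in CTCFL-KD. None of the 3 genes had a treated library inside the Control range, and AMOTL2 was the gene of the 3 with the treated groups on opposite sides of Control.

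The coactivators and their DNA-binding partner are the transcriptional arm. YAP1 (chr11:102110447-102233424, plus strand) was at 79.4, 79.9 and 79.2 CPM in Control, 83.8, 59.3 and 58.4 CPM in CTCFL-OE and then 36.0, 62.8 and 69.2 CPM in CTCFL-KD. WWTR1 (chr3:149517235-149736714, minus strand) was at 98.2, 97.6 and 108 CPM in Control, 99.7, 71.2 and 66.7 CPM in CTCFL-OE and then 60.1, 88.2 and 101 CPM in CTCFL-KD. TEAD1 (chr11:12674421-12944737, plus strand), the TEAD factor of the set, was at 168, 183 and 190 CPM in Control, 159, 133 and 119 CPM in CTCFL-OE and then 63.7, 152 and 153 CPM in CTCFL-KD. All CTCFL-KD libraries lay below Control for YAP1 and TEAD1, and WWTR1 overlapped. Within CTCFL-OE, replicate 1 held the highest level of YAP1, WWTR1, TEAD1 and LATS2, and replicate 3 the highest level of CCN1, CCN2, ANKRD1 and AXL. CTCFL-KD replicate 1 was the lowest CTCFL-KD library for 8 of the 10 genes, and replicate 3 the highest for 9.

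**Figure D1:**
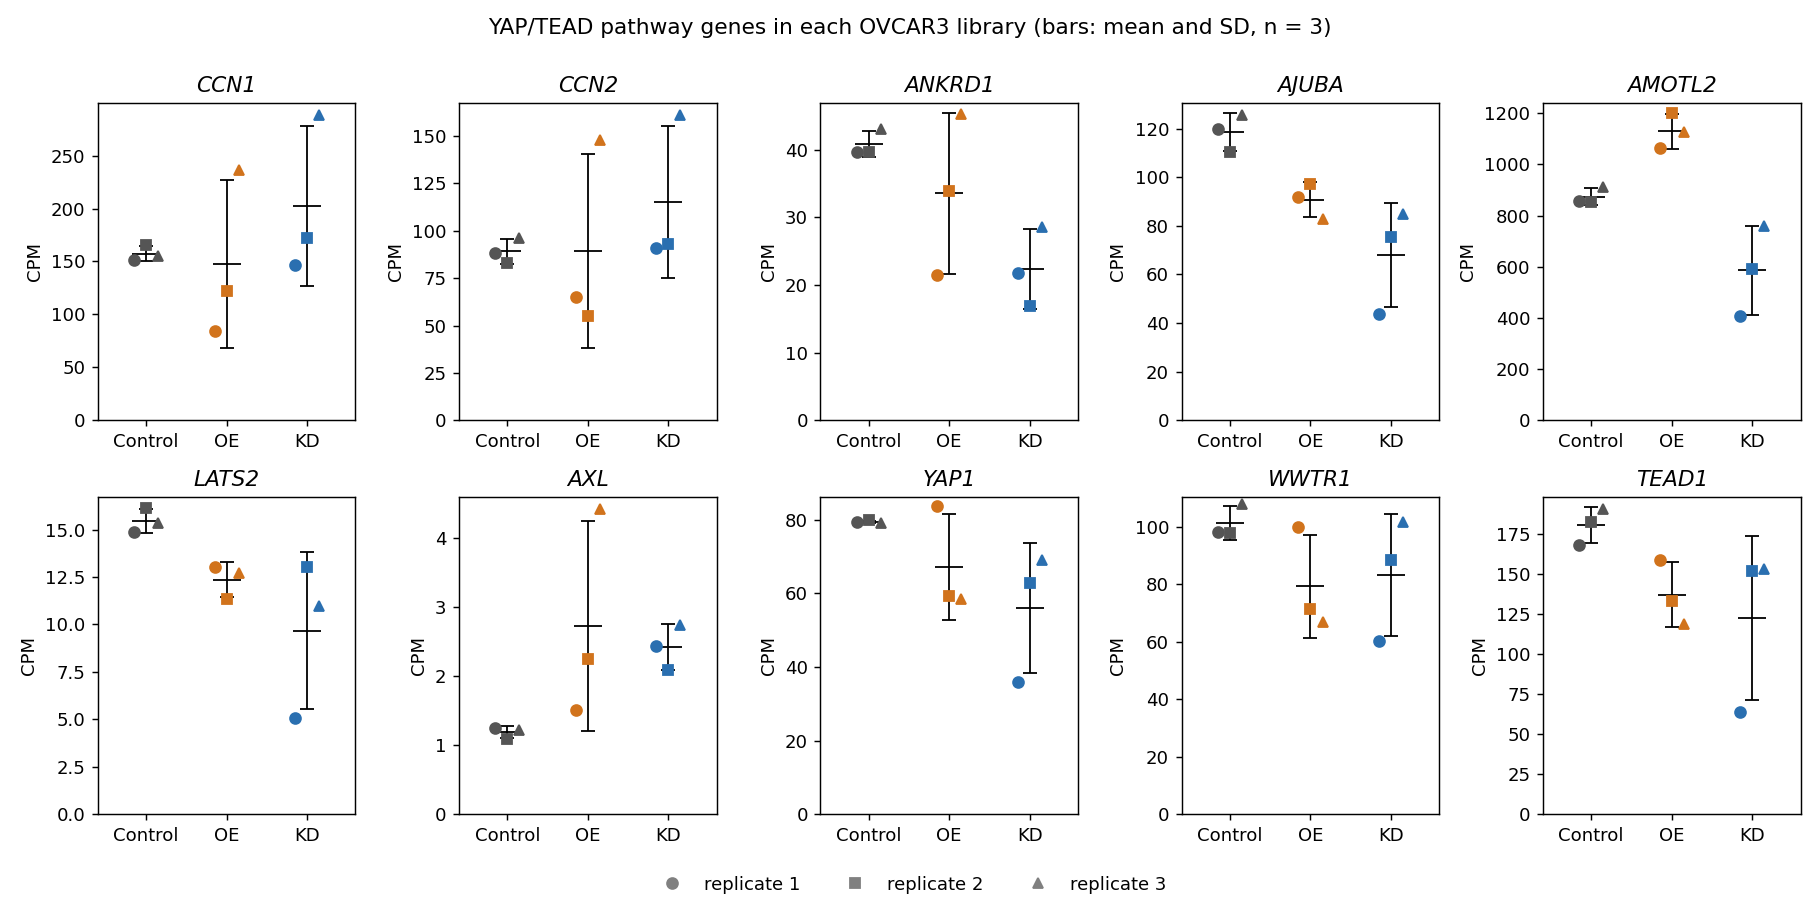
Level of each of the 10 genes (CPM, axis from 0) in the 9 libraries, with replicates as marker shapes and the mean and SD of each group (n = 3) as bars. Control libraries are tight, replicate 3 of CTCFL-OE is high for CCN1, CCN2, ANKRD1 and AXL, and AMOTL2 lies above Control in CTCFL-OE and below it in CTCFL-KD.

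The comparison of CTCFL-OE with Control asked which of these genes moved when CTCFL was raised. None of the 10 passed the test at an adjusted p under 0.1, and at an unadjusted p under 0.05 there was 1, AXL, in the edgeR quasi-likelihood fit, with p-values adjusted by Benjamini-Hochberg over all genes. Among all 17794 genes, 3.15% passed, and 2.07% were DEGs, which also had a log2 fold change beyond 1. No member was a DEG. In bulk RNA, fewer cells that express a gene and less RNA per cell cannot be told apart. AXL had the largest fold change, a log2 fold change of 1.18 ± 0.37 (SE, 95% interval 0.37 to 1.99, adjusted p = 0.143). Without CTCFL-OE replicate 3, its highest library, the AXL value was 0.65 (adjusted p = 0.469), and without replicate 1 it was 1.48 (adjusted p = 0.0350). AMOTL2, the other gene above Control in all libraries, was at 0.37 ± 0.23 (adjusted p = 0.436), with an interval of -0.15 to 0.89. The median over the 10 genes was -0.26, against -0.01 over all genes tested, and 7 of the 10 were below 0.

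Changes of CCN1 and CCN2 in CTCFL-OE could not be fixed in direction. CCN1 had a log2 fold change of -0.09 ± 0.36 (interval -0.88 to 0.69) and CCN2 of 0.00 ± 0.36 (interval -0.78 to 0.79), so rises or falls of up to about that size were not detectable. Leaving out CTCFL-OE replicate 3 gave -0.62 (adjusted p = 0.514) for CCN1 and -0.58 (adjusted p = 0.494) for CCN2, and leaving out replicate 1 gave 0.18 for both. ANKRD1 was at -0.28 ± 0.27 (interval -0.87 to 0.31). For the transcriptional arm the intervals were -0.78 to 0.30 for YAP1, -0.85 to 0.14 for WWTR1 and -1.04 to 0.25 for TEAD1.

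AJUBA (-0.39 ± 0.23, adjusted p = 0.397), LATS2 (-0.32 ± 0.27, adjusted p = 0.560) and TEAD1 (-0.40 ± 0.29, adjusted p = 0.501) had all 3 CTCFL-OE libraries below all 3 Control libraries, and AMOTL2 and AXL had all 3 above. Among all genes tested, 20.8% lay below Control in this way and 16.3% above, 37.1% in all. Calls in this comparison depended on libraries and tool. Leaving out CTCFL-KD replicate 1, which is in neither group but enters the common spread, gave 5 members and 27.4% of all genes past the threshold. The 5 were AXL (adjusted p = 0.0575), AJUBA (adjusted p = 0.0373), AMOTL2 (adjusted p = 0.0770), LATS2 (adjusted p = 0.0817) and TEAD1 (adjusted p = 0.0513), and DESeq2 on all 9 libraries gave 1, AXL (adjusted p = 0.0546), with 8.55% of all genes.

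**Figure D2:**
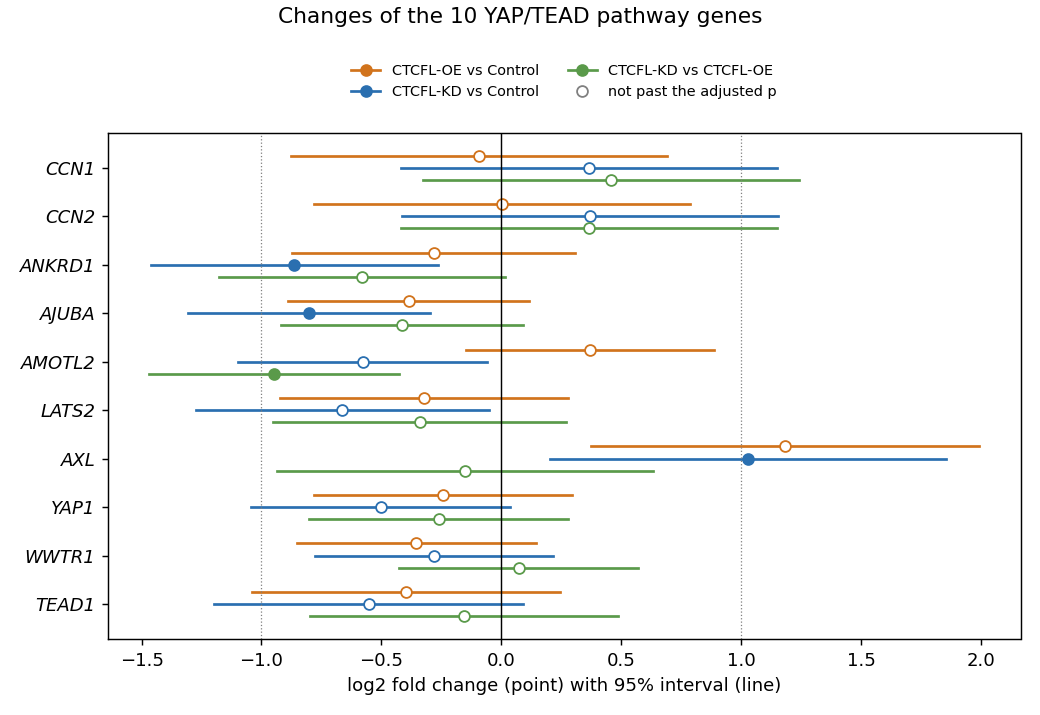
Log2 fold change (points) with its 95% interval (lines) of the 10 genes in the 3 comparisons, filled where the adjusted p passed the threshold and dotted lines at -1 and 1. The filled points are ANKRD1, AJUBA and AXL for CTCFL-KD vs Control and AMOTL2 for CTCFL-KD vs CTCFL-OE.

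The comparison of CTCFL-KD with Control asked the converse question. ANKRD1 and AJUBA fell and AXL rose, so 3 of the 10 genes passed at an adjusted p under 0.05, a share close to the 38.2% of all genes tested (21.4% higher, 16.8% lower). The mean of ANKRD1 fell from 40.8 ± 1.92 CPM (SD, n = 3) to 22.4 ± 5.88 CPM, and its log2 fold change was -0.86 ± 0.27 (SE, adjusted p = 0.0278, 1.82-fold lower). That of AJUBA fell from 119 ± 7.69 to 68.0 ± 21.5 CPM, with a log2 fold change of -0.80 ± 0.23 (adjusted p = 0.0182, 1.74-fold lower). AXL, from 1.19 ± 0.0862 to 2.42 ± 0.329 CPM, rose by a log2 fold change of 1.03 ± 0.37 with an adjusted p of 0.0499 at the edge of the threshold. AXL was also the only one of the 10 past a log2 fold change of 1, against 23.2% of all genes.

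The other members stayed short of the threshold in CTCFL-KD. AMOTL2 had a log2 fold change of -0.58 ± 0.24 (adjusted p = 0.0739), LATS2 of -0.66 ± 0.28 (adjusted p = 0.0801), YAP1 of -0.50 ± 0.24 (adjusted p = 0.126) and TEAD1 of -0.55 ± 0.29 (adjusted p = 0.157). WWTR1 was at -0.28 ± 0.23 (interval -0.78 to 0.22), and CCN1 and CCN2 were both at 0.37 ± 0.36, with intervals of -0.42 to 1.15. Without CTCFL-KD replicate 3 CCN1 was at 0.017 and CCN2 at 0.040. The median over the 10 genes was -0.53, against 0.08 over all genes, and 7 of the 10 were below 0. In 7 of the 10 the CTCFL-KD libraries did not overlap with Control, 6 below and AXL above, against 56.3% of all genes (27.6% below, 28.7% above).

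The levels of most members were lowest in CTCFL-KD replicate 1. The median log2 ratio of the 10 genes to the Control mean was -0.999 in replicate 1, -0.25 in replicate 2 and -0.20 in replicate 3. Without replicate 1, AJUBA remained past the threshold at -0.56 (adjusted p = 0.00281) and ANKRD1 at -0.84 (adjusted p = 0.0345), LATS2 passed at -0.37 (adjusted p = 0.0399), and AXL did not at 1.03 (adjusted p = 0.0609), in a fit where 49.9% of all genes passed. In the same fit AMOTL2 was at -0.37, YAP1 at -0.26, TEAD1 at -0.24 and WWTR1 at -0.090, none of them past the threshold. Without replicate 3 AMOTL2 passed at -0.81 (adjusted p = 0.0280) and WWTR1 was at -0.45, when 34.8% of all genes passed. With the trend with exon length removed from every library, 5 of the 10 genes and 42.5% of all genes passed. The 5 were ANKRD1 at -1.05 (adjusted p = 0.0119), AJUBA at -0.83 (adjusted p = 0.00681), AMOTL2 at -0.59 (adjusted p = 0.0359), LATS2 at -0.70 (adjusted p = 0.0446) and AXL at 0.99 (adjusted p = 0.0460). The Control libraries also decided calls, since 0, 1 and 0 members passed when Control replicate 1, 2 or 3 was left out, the 1 being AJUBA, while 26.8%, 26.7% and 25.8% of all genes did.

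**Figure D3:**
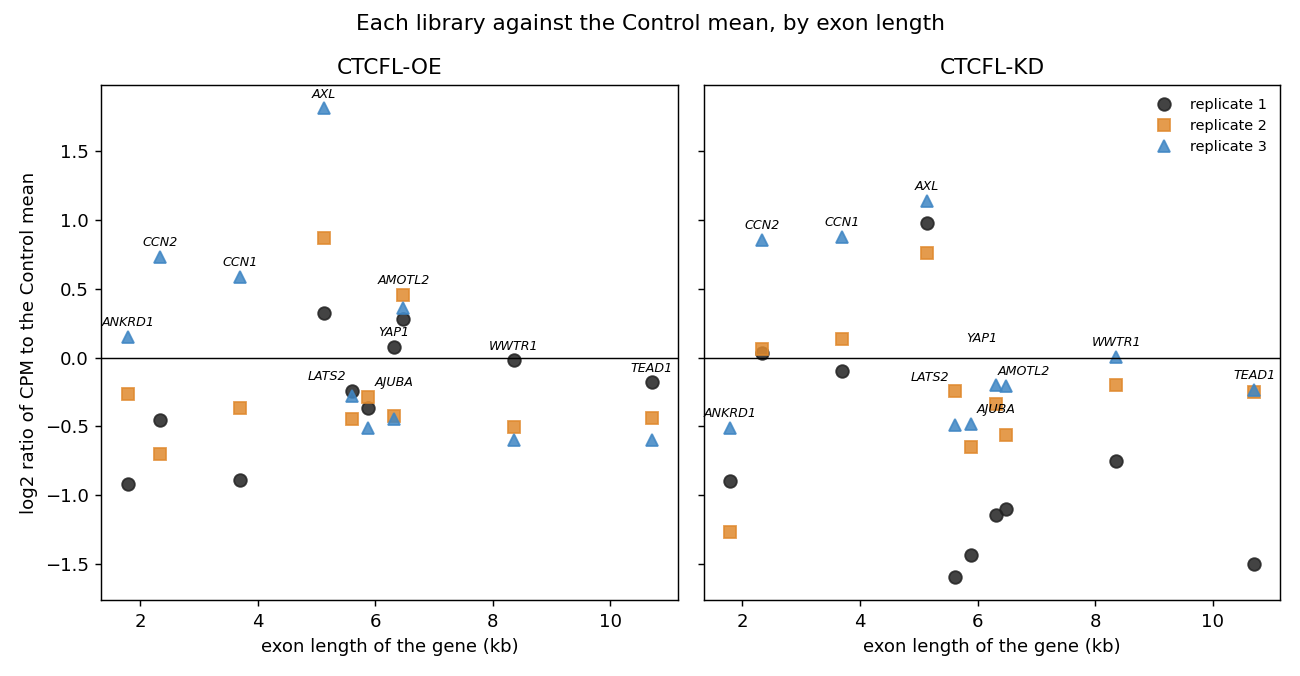
Log2 ratio of each library's CPM to the Control mean for the 10 genes, against the exon length of the gene in kb, for CTCFL-OE (left) and CTCFL-KD (right), with replicates as markers. Replicate 1 of CTCFL-KD lies lowest for 8 of the genes, with a median of -0.999.

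Set directly against each other, CTCFL-KD and CTCFL-OE differed in AMOTL2. Its mean was 1129 ± 68.8 CPM after overexpression and 586 ± 175 CPM after knockdown, which gave -0.95 ± 0.24 on the log2 scale (SE, adjusted p = 0.0135), and the groups did not overlap. AMOTL2 was the 1 member past the adjusted p of 0.05, against 26.8% of all genes (11.5% lower), and no member was also past a log2 fold change of 1 (17% of all genes). It was also the 1 member whose libraries did not overlap between these groups, as in 39.8% of all genes (19.5% lower in CTCFL-KD). ANKRD1 was at -0.58 ± 0.27 (adjusted p = 0.134), AJUBA at -0.41 ± 0.23 (adjusted p = 0.198), CCN1 at 0.46 ± 0.36 (adjusted p = 0.360) and AXL at -0.15 ± 0.36 (interval -0.94 to 0.63). Without CTCFL-OE replicate 2 the AMOTL2 value was -0.91 (adjusted p = 0.0505), when 17.3% of all genes passed. The AMOTL2 call also ended in edgeR fits to these 2 groups alone, with adjusted p up to 0.0708. This held without (15.5% of all genes passed) and with (11.5%) a factor for replicate number. Without CTCFL-OE replicate 3 CCN1 and CCN2 also passed, at 0.97 (adjusted p = 0.0462) and 0.93 (adjusted p = 0.0360), when 23% of all genes did.

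The wider pathway was read from lists of genes with known roles, which were chosen with earlier results of these data known. In CTCFL-KD the kinase cassette and its upstream activators leaned one way, with 8 of 13 genes lower and 0 higher past the adjusted p, and fold changes below 0 in all 13 (median -0.68, against 0.08 over all genes, of which 16.8% were lower past the adjusted p). WWC2, a KIBRA-family scaffold that activates LATS kinases, fell from 219, 231 and 234 CPM in Control to 26.2, 84.1 and 96.6 CPM (log2 fold change -1.72 ± 0.37, adjusted p = 0.00442). MAP4K4, a kinase that acts beside MST kinases on LATS, fell by 1.14 on the log2 scale (adjusted p = 0.00179), WWC1 by 0.95 (adjusted p = 0.00166) and MOB1A, the LATS coactivator, by 0.80 (adjusted p = 0.0243). WWC2, MAP4K4 and WWC1 passed in all 9 fits that left out 1 library, and MOB1A in 7. Without Control replicate 1, 2 or 3 the count was 3, 6 and 3 (26.8%, 26.7% and 25.8% of all genes passed in either direction). It was 6 to 8 without any other library, in fits where 34.6% to 49.9% of all genes passed in either direction. Without CTCFL-KD replicate 1, the fit with 49.9%, it was 8, with a median of -0.51. In CTCFL-OE no gene of this list passed (3.15% of all genes did), at a median of -0.24. Without CTCFL-KD replicate 1, when 27.4% of all genes passed in CTCFL-OE, there were 6 lower.

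Few of the junction regulators passed the tests, and those that did went in both directions in CTCFL-KD. FRMD6, a FERM protein that activates the cascade, was at 26.5, 23.4 and 23.1 CPM in Control, 7.84, 9.30 and 9.22 CPM in CTCFL-OE and then 2.53, 4.99 and 6.13 CPM in CTCFL-KD. It fell in both comparisons, at -1.47 ± 0.26 (adjusted p = 0.0276) and -2.39 ± 0.27 (adjusted p = 9.42e-05). AMOT, the angiomotin paralog of AMOTL2, was at 60.9, 82.4 and 71.5 CPM in Control, 42.1, 33.8 and 37.7 CPM in CTCFL-OE and then 163, 240 and 210 CPM in CTCFL-KD. AMOT fell in CTCFL-OE (-0.92 ± 0.20, adjusted p = 0.0555) and rose in CTCFL-KD (1.51 ± 0.20, adjusted p = 0.000268), and the direct difference of CTCFL-KD from CTCFL-OE was 2.43 ± 0.21 (adjusted p = 2.88e-05). Its treated groups lay on the opposite sides of Control from those of AMOTL2. DCHS1, a large protocadherin, rose in CTCFL-KD from under 1 CPM in each Control library to 1.62, 3.98 and 4.87 CPM (log2 fold change 3.54 ± 0.49, adjusted p = 0.000339). The Control level rested on 3, 13 and 4 counts, and without Control replicate 2, the library with 13, the DCHS1 log2 fold change was 4.27 (adjusted p = 0.000852). The CTCFL-OE calls of FRMD6 and AMOT ended when any Control library, CTCFL-OE replicate 2 or CTCFL-OE replicate 3 was left out. In those fits 0.24% to 0.635% of all genes passed, and adjusted p reached 0.149 for FRMD6 and 0.261 for AMOT. The log2 fold changes there were -1.52 to -1.41 for FRMD6 and -1.03 to -0.81 for AMOT. In CTCFL-KD both genes passed in all 9 fits that left out 1 library. In all, 0 of 9 listed junction genes were higher and 2 lower in CTCFL-OE, where 3.15% of all genes passed, and 2 were higher and 1 lower in CTCFL-KD, a share below the 38.2% of all genes.

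Among the TEAD paralogs and VGLL cofactors, which compete with YAP for TEAD, 1 of 6 was lower in CTCFL-OE (3.15% of all genes passed) and 1 was higher in CTCFL-KD, a share below the 38.2% of all genes. VGLL3 fell in CTCFL-OE, from 1.40 ± 0.0678 to 0.468 ± 0.230 CPM (-1.56 ± 0.38, adjusted p = 0.0795), on 5 to 14 counts per CTCFL-OE library. This call ended when any Control library, CTCFL-OE replicate 2 or 3, or CTCFL-KD replicate 3 was left out (log2 fold change -2.03 to -1.37, adjusted p up to 0.288). In those fits 0.24% to 2.43% of all genes passed. VGLL1 was at 0.952, 1.32 and 1.06 CPM in Control and 15.0, 8.09 and 8.16 CPM in CTCFL-KD, a rise of 3.20 ± 0.33 on the log2 scale (adjusted p = 5.17e-05). The 3 listed TEAD paralogs of TEAD1 passed in neither comparison.

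Other known YAP and TAZ targets went both ways in CTCFL-KD, with 5 of 16 higher and 4 lower and a median of 0.05, beside 21.4% higher and 16.8% lower among all genes. Without CTCFL-KD replicate 1 the counts were 8 higher and 5 lower with a median of 0.24 (49.9% of all genes passed), and without CTCFL-KD replicate 3 they were 4 and 4 with a median of -0.22. NT5E, the ectoenzyme CD73, rose from 1.19 ± 0.311 to 6.32 ± 2.05 CPM (2.43 ± 0.38, adjusted p = 0.000788). Tissue factor (F3) fell from 24.6 ± 1.24 to 5.76 ± 1.58 CPM (-2.08 ± 0.40, adjusted p = 0.00246), DOCK5, a Rac exchange factor, from 22.5 ± 0.918 to 3.97 ± 1.22 CPM (-2.48 ± 0.24, adjusted p = 3.4e-05), and the forkhead factor FOXF2 from 2.87 ± 0.313 to 0.425 ± 0.336 CPM (-2.83 ± 0.55, adjusted p = 0.00254). In CTCFL-OE 1 of the 16 passed, against 3.15% of all genes. It was CCDC80, a secreted matrix protein, at 36.3, 41.8 and 40.1 CPM in Control and 73.2, 76.5 and 90.6 CPM in CTCFL-OE (1.02 ± 0.16, adjusted p = 0.0164), and in CTCFL-KD it was also higher than in the same Control libraries, at 107, 118 and 111 CPM (1.51 ± 0.16, adjusted p = 6.47e-05). The CTCFL-OE call of CCDC80 ended when Control replicate 1, 2 or 3 was left out, at log2 fold changes of 0.96, 1.06 and 1.03 (adjusted p up to 0.155), in fits where 0.245%, 0.332% and 0.24% of all genes passed.

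Of 8 listed relatives of CCN1, CCN2 and AXL, 6 were tested, of which 1 was higher in CTCFL-OE (3.15% of all genes passed), and 2 were higher and 1 lower in CTCFL-KD (38.2% of all genes passed). The median log2 fold change of the 6 was 0.77 in CTCFL-OE, with 0 genes below 0, and 0.66 in CTCFL-KD, with 1 below 0, CCN5, against -0.01 and 0.08 over all genes. The CTCFL-OE count was 5 without CTCFL-OE replicate 1 (15.1% of all genes passed), without CTCFL-KD replicate 1 (27.4%) and with the groups compared alone (20.2%). It was 4 with DESeq2 on all 9 libraries (8.55%). It was 0 without any 1 of the Control libraries (0.24% to 0.332%), CTCFL-OE replicate 2 (0.431%) or 3 (0.635%) or CTCFL-KD replicate 3 (2.43%). CCN5, a CCN protein without the cystine-knot module, was at 12.0, 11.5 and 13.1 CPM in Control and 1.89, 0.951 and 1.53 CPM in CTCFL-KD (-3.09 ± 0.26, adjusted p = 1.46e-05), while in CTCFL-OE it was at 18.6, 17.3 and 24.1 CPM (0.71 ± 0.21, adjusted p = 0.136). CCN3 rose in CTCFL-OE, from 14.3 ± 1.41 to 35.1 ± 15.5 CPM (1.30 ± 0.33, adjusted p = 0.0919). That call ended when any Control library, CTCFL-OE replicate 2 or 3, or CTCFL-KD replicate 3 was left out. It also ended with the replicate block on all 9 libraries. In the fits without the call 0.24% to 2.43% of all genes passed. Over all libraries left out the CCN3 log2 fold change was 0.87 to 1.51, with adjusted p up to 0.362. MERTK, a paralog of AXL, and PROS1, a ligand of this receptor family, rose in CTCFL-KD by 1.19 ± 0.26 (adjusted p = 0.00455) and 1.16 ± 0.21 (adjusted p = 0.00148) on the log2 scale, beside the 1.03 of AXL.

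**Figure D4:**
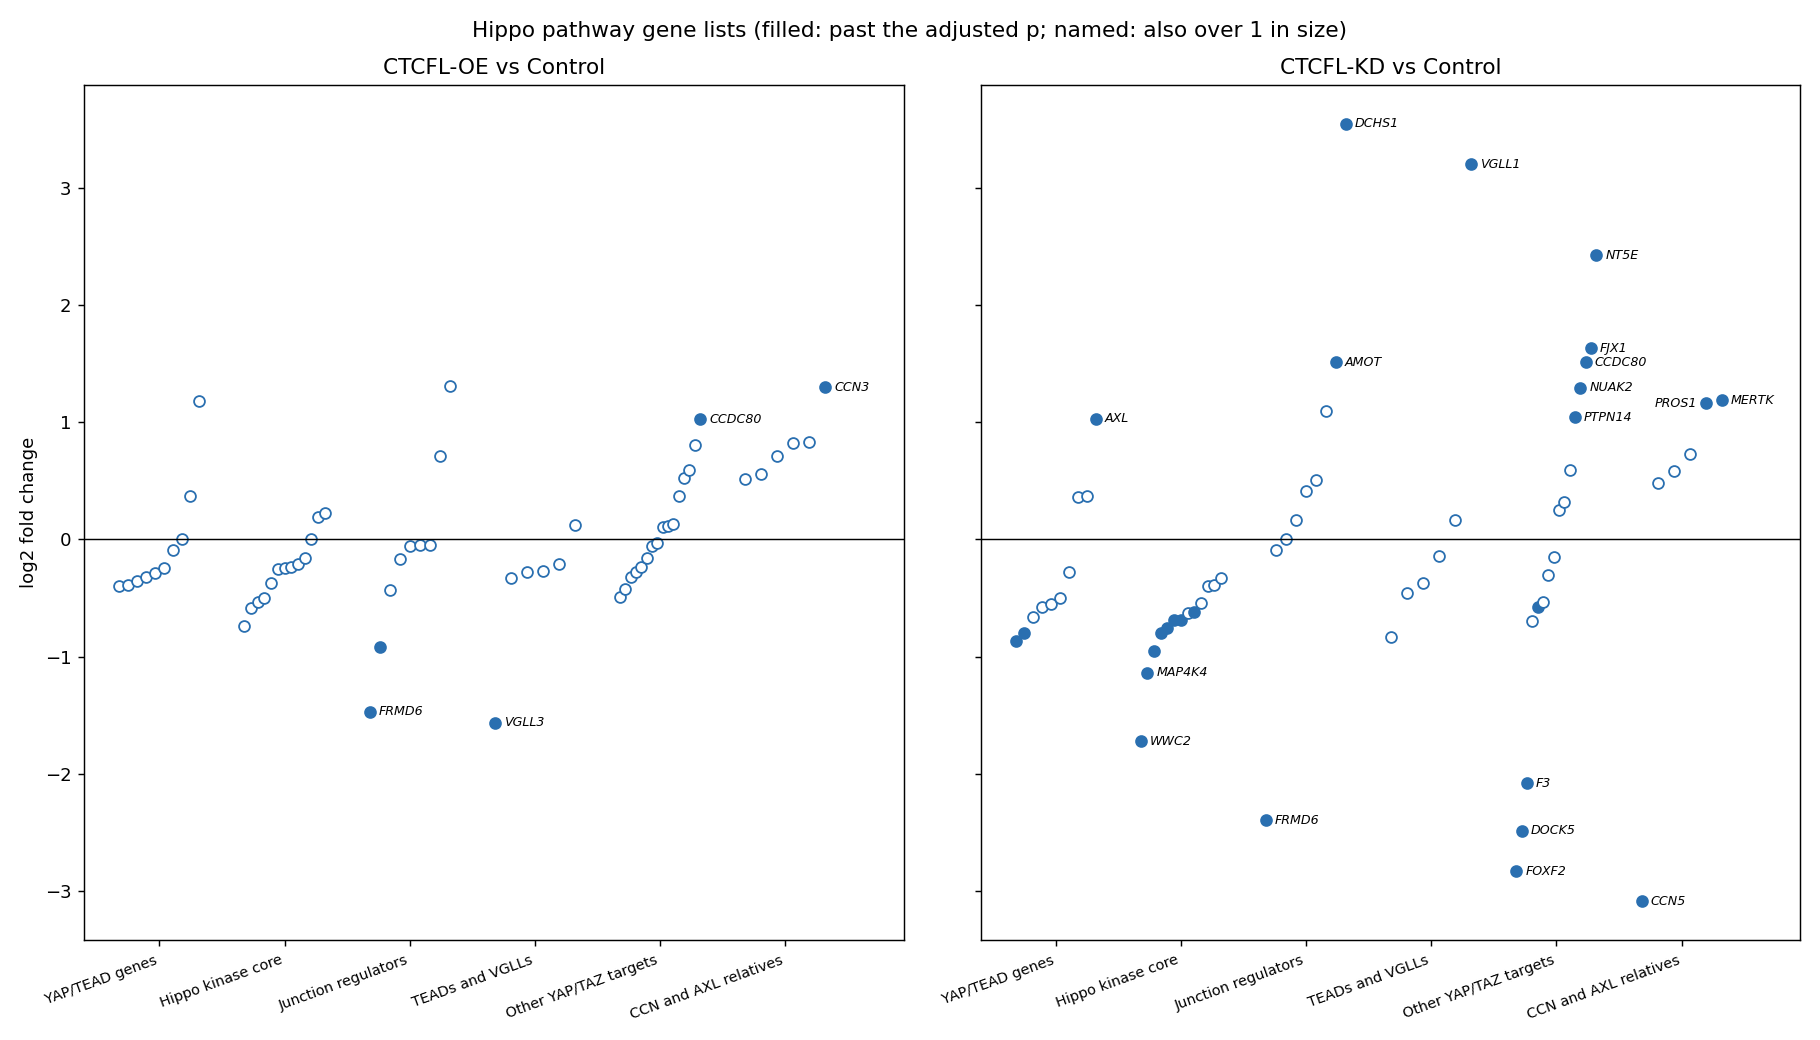
Log2 fold change of every tested gene of the YAP and TEAD set and of the 5 other pathway lists, in CTCFL-OE (left) and CTCFL-KD (right) vs Control, filled where the adjusted p passed the threshold and named where the change also exceeded 1. In CTCFL-KD all 13 genes of the kinase list lie below 0, while the junction genes and the other targets lie on both sides.

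The genes that moved from their Control mean most like CCN1, CCN2 and ANKRD1 were sought over the 9 libraries. The measure was the root mean square distance of log2 CPM, with each gene centred on its Control mean. CCN2 was the nearest gene to CCN1 (distance 0.21), ahead of DKK1, a secreted Wnt inhibitor, and MYADM (both 0.23). The nearest to CCN2 were PGRMC2 (0.16), SPCS3, a subunit of the signal peptidase (0.18), and TMED2, a cargo receptor of the secretory route (0.20). The nearest to ANKRD1 were INAFM2 (0.14), DRAM1 and the MAP kinase phosphatase DUSP1 (both 0.19). These are likenesses of change from the Control mean in these libraries alone, and not of level. DKK1 was at 0.463 ± 0.115 CPM in Control (SD, n = 3), on 5 to 15 counts per library over all groups. CCN1 was at 157 ± 7.15 CPM in Control.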

How the data were processed

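OVCAR3 RNA was sequenced as stranded mRNA libraries in paired-end mode. According to the study's methods, the authors trimmed reads with Trimmomatic, used STAR for alignment to GRCh38 and assigned reads to genes with featureCounts, and the labels' notes also name kallisto. The deposited values are raw counts per gene, without normalization, and each of the 9 library files equalled its column of the matrix. The gene annotation used for counting, its strand option and the rule for reads with several alignments are not given in the sources used here, so paralogs and overlapping genes are uncertain, although no gene overlapping a member exceeded 30 counts in a library. Symbols, positions and exon lengths came from GENCODE release 44, which named 60463 of 60660 identifiers.

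Counts were filtered with filterByExpr, scaled by TMM and fitted with edgeR 4.0.16 (R 4.3.3, glmQLFit with robust estimation) to all 9 libraries with group as the only factor. CPM values use TMM-scaled library sizes. CTCFL-OE vs Control, CTCFL-KD vs Control and CTCFL-KD vs CTCFL-OE were tested by the quasi-likelihood test with Benjamini-Hochberg adjustment over 17794 genes. The thresholds were an adjusted p of 0.1 for the first and 0.05 for the others, and a DEG also had a log2 fold change beyond 1. The script was tested on simulated data. The alternatives were RLE and upper-quartile scaling, no filter, a floor of 10 counts per library, non-robust estimation, DESeq2 1.42.0, the groups compared alone, the replicate block, each library left out, and, chosen after seeing the data, removal of the trend with exon length. The members and lists were chosen with earlier results of these data known. Outside the 10 members, up to 4 genes per list and comparison were named, those with the largest change past the adjusted p, with no overlap with Control and at least 1 CPM in a group.

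Replicate numbers were checked for pairing over 11622 genes. After the group means were removed, Control and CTCFL-KD libraries that share a number had correlations of 0.384, 0.221 and 0.265. Those with different numbers ran from -0.3824 to 0.1545, the highest being Control replicate 3 with CTCFL-KD replicate 2. Control replicate 1 and CTCFL-KD replicate 1 also shared a fall with exon length in their ratios to the Control mean (Spearman -0.329 and -0.336). Its part in their correlation was not tested. The numbers may thus pair these groups, which the labels do not state. The main fit leaves pairing out, and the replicate block is the alternative that holds it. For Control and CTCFL-OE libraries that share a number the values were -0.0445, 0.225 and -0.0496, which did not pair them. Totals of 14332622 to 24490080 counts set the precision, and intervals are of the fitted fold change. Python 3.11.15, pandas 2.3.3 and matplotlib 3.10.9 were used for tables and figures.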

Additional observations from a re-analysis of the deposited data

How the results depend on the processing

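The replicate block changed no call of the 10 genes in CTCFL-KD vs Control. In CTCFL-OE vs Control no member passed, against 3.15% of all genes. With no low-count filter 1 member passed (4.01% of the 37834 genes then tested). DESeq2 on all 9 libraries (8.55% of all genes) and the replicate block on the groups compared (17.8%) also gave 1. With the groups compared alone 3 passed (20.2%), and with DESeq2 on them 4 (23.6%). AXL was the 1 member DEG under each of these 5 alternatives. Leaving out 1 library gave 0 to 5 members past the adjusted p, in fits where 0.24% to 27.4% of all genes passed, and 0 to 1 DEGs. In CTCFL-KD vs Control 3 members passed, against 38.2% of all genes. With no filter 6 passed (21.2% of the 37834 genes then tested). With the length trend removed 5 passed (42.5% of all genes), and with that and the replicate block 5 (41.2%). DESeq2 on all 9 libraries gave 4 (42.4%). RLE scaling (38%) and at least 10 counts in every library (38.6%) gave 2 each, without AXL. Leaving out 1 library gave 0 to 3, in fits where 25.8% to 49.9% of all genes passed. The 1 DEG in CTCFL-KD vs Control, AXL, became 0 with RLE scaling, with no filter and with at least 10 counts in every library, and leaving out 1 library gave 0 to 1. With the length trend removed the 1 DEG was ANKRD1 instead (-1.05, adjusted p = 0.0119, and -1.12, adjusted p = 0.00232, with the replicate block), as it was without CTCFL-KD replicate 3 (-1.09, adjusted p = 0.0169), while AXL was at 0.99 and 0.96 (with the block) once the trend was removed. For CTCFL-KD vs CTCFL-OE 1 member passed, against 26.8% of all genes. With no filter 2 passed (16.1% of the 37834 genes then tested). With the groups compared alone 0 passed (15.5% of all genes), and with the replicate block on them 0 (11.5%). Removing the length trend with the replicate block gave 2 (29.6%). Leaving out 1 library gave 0 to 3, in fits where 17.3% to 39.7% of all genes passed. This comparison had 1 DEG with no filter and 0 to 1 with 1 library left out. The causes were not tested.

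Directions turned for values close to 0. In CTCFL-OE vs Control, CCN1 was 0.18 without CTCFL-OE replicate 1 and 0.024 without replicate 2, in a range from -0.62 to 0.18 over the libraries left out. CCN2, at 0.00, was -0.0047 with no filter, -0.14 with the replicate block on all libraries, -0.10 with the block on the groups compared, -0.025 with the length trend removed and -0.17 with that and the block. It was -0.012 without Control replicate 1, -0.054 without Control replicate 2, -0.58 without CTCFL-OE replicate 3 and -0.0021 without CTCFL-KD replicate 3, in a range from -0.58 to 0.25. For CTCFL-KD vs CTCFL-OE, AXL was 0.36 without CTCFL-OE replicate 3 (range -0.46 to 0.36), TEAD1 was 0.16 without CTCFL-KD replicate 1 (range -0.35 to 0.16), and WWTR1 was -0.0067, -0.044 and -0.095 without CTCFL-OE replicate 2, CTCFL-OE replicate 3 and CTCFL-KD replicate 3 (range -0.095 to 0.27). Over the 21 alternatives in CTCFL-KD vs Control, ANKRD1 passed in 17, AJUBA in 19 and AXL in 12, and AMOTL2 passed in 18 in CTCFL-KD vs CTCFL-OE. AXL rested on 24 to 28 counts per Control library.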
